A study of Homo sapiens with 9 samples.

Results

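Neutrophils store antimicrobial proteins and proteases in granules, and 10 genes for such proteins were followed here through 9 RNA libraries labelled as HEK293T cells that had received an empty vector or a human protamine. The genes were taken from general knowledge of neutrophil granules and were selected on a rise of leukocyte genes already seen in the RPKM values of the libraries labelled hPRM1, so their levels there are given as a description, without a test. MPO, ELANE, PRTN3 and CTSG stand for primary granules, LTF, LCN2, CAMP and MMP8 for secondary granules, and MMP9 and ARG1 for tertiary granules. All 10 were found by their Ensembl identifiers among the 57338 genes of the table.

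Neutrophil granules are made one class after the other while the cell matures in the bone marrow, and each protein goes mainly to the granules that form while its gene is transcribed. Primary (azurophil) granules fill at the promyelocyte stage, secondary (specific) granules at the myelocyte and metamyelocyte stages and tertiary (gelatinase) granules at the band stage. Neutrophils that have left the marrow carry the finished proteins but little of the RNA of the earliest class.

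HEK293T is a human embryonic kidney line. The cells received a plasmid for EGFP alone (empty vector), for EGFP fused to human protamine 1 (hPRM1) or for EGFP fused to human protamine 2 (hPRM2), with the same lipid reagent, and live cells with high EGFP were sorted 3 days later. Each of the 3 groups had 3 libraries, made from polyadenylated RNA with a kit that reads the 3′ ends of transcripts, and the authors deposited RPKM values (reads scaled to the total of the library and to gene length in kilobases). Nothing in the labels says that the replicates of a group were separate cultures, so p-values measure the spread between these libraries, which may be technical. Both protamine groups were compared with the same empty vector libraries.

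The PRM1 gene was listed at 0 in all 9 libraries, including those labelled hPRM1, whereas PRM2 ranged from 36130 to 71224 RPKM in the hPRM2 libraries and was at 0 elsewhere. The 3 libraries labelled hPRM1 stood apart from the other 6. Of 8 marker genes of HEK293T cells, 7 were at 0 in all 3 of them and only CKB was above 0, with a summed level of 6.97 to 10.7 RPKM against 3314 to 5056 in the empty vector and 1771 to 5627 in hPRM2. Haemoglobin RNA was very high in them, with HBB between 765727 and 892449 RPKM and at 0 in the other 6 libraries. HBA2 was between 1146420 and 1295700 RPKM in them and at most 18.0 RPKM in the other 6. HBA1 was between 115466 and 173073 RPKM in them and at most 5.72 RPKM in the other 6. The library names also carry another run of numbers for the libraries labelled hPRM1, so library series and condition cannot be told apart. Reads on genes, estimated from the smallest steps of the RPKM values, came to between 7900000 and 10780000 in the empty vector, between 4200000 and 5850000 in the libraries labelled hPRM1 and between 1270000 and 2640000 in hPRM2. By estimate, most reads of the libraries labelled hPRM1 were haemoglobin. In replicates 1, 2 and 3, HBA2 took an estimated 2799460, 1883870 and 2646490 reads and HBB 2637280, 1693690 and 2020020. These numbers use the longest transcript of each gene and are rough. Added to those of HBA1 and other genes, they exceed the estimated total of replicate 1, so they cannot all hold. RPKM values and shares of other genes there are taken of totals that include the haemoglobin reads.

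The 10 genes were nearly silent outside the libraries labelled hPRM1. In the empty vector, 7 of 10 were at 0 in all 3 libraries, and in hPRM2 all but MMP9 were at 0 in all 3. In the libraries labelled hPRM1, 9 of 10 were above 0 in every library, PRTN3 being the exception. The genes together took an estimated 1214, 453 and 581 reads in replicates 1, 2 and 3, or 0.0207%, 0.0108% and 0.0111% of the reads on genes. The same sum was 5.0, 19.3 and 19.2 reads in the empty vector and 30.9, 0 and 1.0 reads in hPRM2. In a bulk library, fewer cells of a type and less RNA per cell cannot be told apart.

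**Figure D1:**
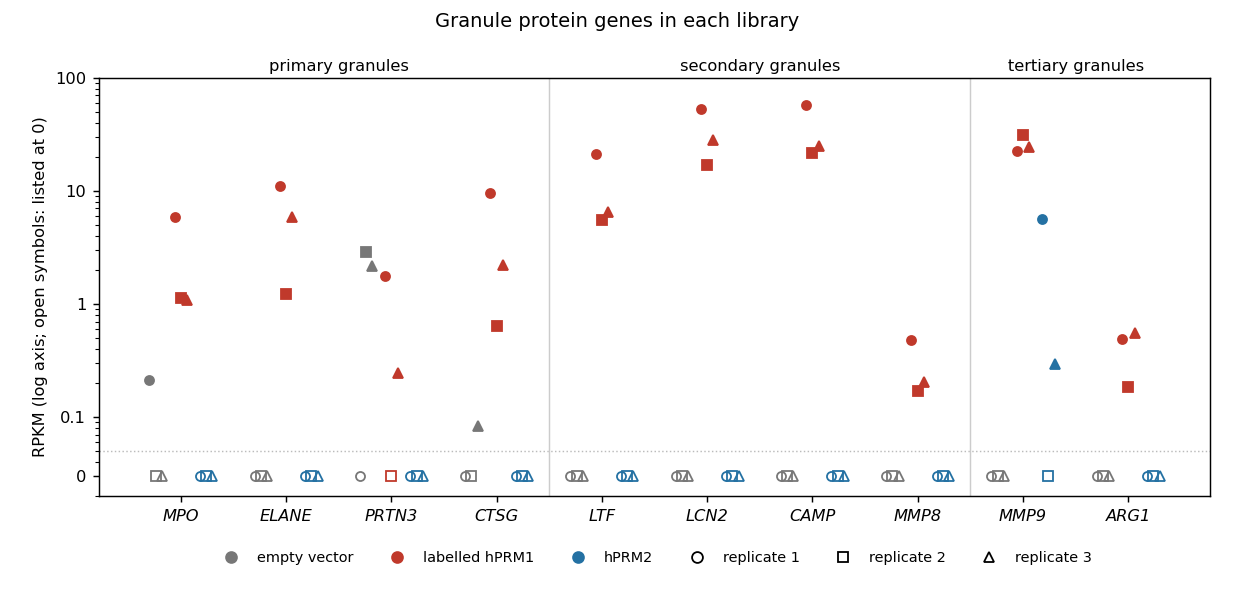
RPKM (log axis) of the 10 granule protein genes in each of the 9 libraries, with colour for the group, symbol shape for the replicate and open symbols below the dotted line for values listed at 0. In 9 of 10 genes the lowest library labelled hPRM1 lies above all other libraries, whereas PRTN3 is higher in empty vector replicates 2 and 3.

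For 9 of the 10 genes the lowest of the 3 libraries labelled hPRM1 was above the highest empty vector library and above the highest hPRM2 library. The background for such a separation towards higher values was 14.5% of the 13588 genes tested against the empty vector and 19.0% of the 11756 genes tested against hPRM2, or 11.9% and 14.2% of all genes above 0 in any of the 6 libraries. Nothing is read from this count, since the choice of genes used these libraries. Not all members could enter the tests. Against the empty vector, 7 passed the filter on low values (at least 1 RPKM in at least 3 of the 6 libraries), and CTSG, MMP8 and ARG1 did not. MPO, ELANE, LTF, LCN2, CAMP and MMP9 passed it through the libraries labelled hPRM1 alone, so that they had to differ.

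Promoter sequences of the members are shown first because 9 of them were higher in the libraries labelled hPRM1 than elsewhere, though some only at a few reads. Another reason is that C/EBP factors and PU.1 are known regulators of granule genes. RefSeq windows (GRCh38.p14, 250 bases before to 50 after a transcription start) were held for 7 of the 10 members in 9 windows, LTF having 3 listed starts. MPO, ELANE and MMP9 had none. Both strands were searched for the C/EBP letters TTNNGNAA, which read TTNCNNAA on the other strand, and for the PU.1 letters GAGGAA, which read TTCCTC. The stretches below hold the 250 bases before the start and the first 30 after it, 5′ to 3′ in the direction of the gene, and capitals mark every match of either motif. They are CTSG (chr14:24576221-24576500, minus strand) and PRTN3 (chr19:840749-841028, plus strand) for primary granules, and LTF (chr3:46464876-46465155, minus strand, 1 of its 3 starts), LCN2 (chr9:128149203-128149482, plus strand) and CAMP (chr3:48223245-48223524, plus strand) for secondary granules.
CTSG: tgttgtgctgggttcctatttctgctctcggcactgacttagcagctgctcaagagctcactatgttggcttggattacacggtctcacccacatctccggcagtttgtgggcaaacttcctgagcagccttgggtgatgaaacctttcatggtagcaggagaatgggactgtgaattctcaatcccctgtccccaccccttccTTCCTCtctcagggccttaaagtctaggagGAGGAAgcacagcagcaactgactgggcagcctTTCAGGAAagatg
PRTN3: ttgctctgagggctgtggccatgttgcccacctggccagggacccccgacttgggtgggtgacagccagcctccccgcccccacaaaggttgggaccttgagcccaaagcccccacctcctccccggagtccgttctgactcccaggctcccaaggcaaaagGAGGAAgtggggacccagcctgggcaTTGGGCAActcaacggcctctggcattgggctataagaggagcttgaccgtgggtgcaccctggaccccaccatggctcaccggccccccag
LTF: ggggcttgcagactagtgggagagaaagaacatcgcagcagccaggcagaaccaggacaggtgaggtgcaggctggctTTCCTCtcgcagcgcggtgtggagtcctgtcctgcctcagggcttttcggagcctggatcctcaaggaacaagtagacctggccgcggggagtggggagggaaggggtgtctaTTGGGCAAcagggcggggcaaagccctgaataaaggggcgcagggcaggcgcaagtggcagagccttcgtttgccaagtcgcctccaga
LCN2: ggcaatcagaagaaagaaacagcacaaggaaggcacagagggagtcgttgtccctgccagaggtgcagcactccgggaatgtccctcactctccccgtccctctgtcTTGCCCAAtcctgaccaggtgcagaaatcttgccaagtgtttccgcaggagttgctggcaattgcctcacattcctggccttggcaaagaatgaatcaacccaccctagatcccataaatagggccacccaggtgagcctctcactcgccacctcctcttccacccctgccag
CAMP: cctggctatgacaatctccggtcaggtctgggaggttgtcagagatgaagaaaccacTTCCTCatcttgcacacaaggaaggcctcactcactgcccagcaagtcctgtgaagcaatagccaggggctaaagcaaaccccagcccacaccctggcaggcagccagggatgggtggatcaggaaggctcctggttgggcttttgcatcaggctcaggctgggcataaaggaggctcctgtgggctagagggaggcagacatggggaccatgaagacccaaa
The C/EBP letters were in 6 of the 9 full windows and the PU.1 letters in 7 of 9. Among all 35116 RefSeq windows, 36.8% held the C/EBP letters and 27.9% the PU.1 letters. PRTN3, which did not follow the other genes, held both motifs, as CTSG and this LTF window did. LCN2 held only the C/EBP letters and CAMP only those of PU.1. In the MMP8 window, a PU.1 match overlapped a C/EBP match, and the ARG1 window held neither. A match is a run of letters and does not show binding.

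Primary granule genes had low levels that differed widely between the libraries labelled hPRM1. MPO (ENSG00000005381, chromosome 17, 58269856 to 58280935 on the minus strand in GENCODE 29, GRCh38), the enzyme that makes hypochlorous acid, had 5.93, 1.12 and 1.10 RPKM in replicates 1, 2 and 3 labelled hPRM1. It had 0.213, 0 and 0 RPKM in the empty vector and was at 0 in the 3 hPRM2 libraries. Replicate 1 stood above the other libraries, which lay close to each other, and the groups did not overlap. The difference in log2(RPKM + 1) to the empty vector was 1.56 (SE 0.57 over the 3 libraries labelled hPRM1). The value of 0.213 in the empty vector rested on about 5 reads.

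ELANE (ENSG00000197561, chromosome 19, 851014 to 856247, plus strand), which codes for neutrophil elastase, had 10.96, 1.22 and 5.90 RPKM in the libraries labelled hPRM1 and was at 0 in the other 6. These values came from about 50, 4 and 24 reads, so replicate 2 lay at a level with an exact 95% Poisson interval of 0.333 to 3.13 RPKM. The mean of 6.03 ± 4.87 RPKM (SD, n = 3) was at least 12.4-fold higher than the 3 reads that a value of 0 allows in the shallowest empty vector library, and at least 7.31-fold higher without replicate 1. The lowest library was at least 2.51-fold higher. Intervals and such limits cover counting error only.

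CTSG (ENSG00000100448, chromosome 14, 24573522 to 24576260, minus strand), the gene of the serine protease cathepsin G, had 9.65, 0.640 and 2.23 RPKM. In replicate 2 this was about 3 reads, and the highest library was 15.1 times the lowest, the widest spread among the 9 genes above 0 in all 3. Empty vector replicate 3 held 0.0832 RPKM, about 1 read, and the remaining libraries were at 0.

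PRTN3 (ENSG00000196415, chromosome 19, 840960 to 848175, plus strand), which codes for proteinase 3 and lies next to ELANE, went the other way. It had 1.76, 0 and 0.247 RPKM in the libraries labelled hPRM1 and 0, 2.86 and 2.15 RPKM in the empty vector, and was at 0 in hPRM2. The groups overlapped, and the empty vector held the 2 highest libraries, from about 19 and 18 reads. The log2 difference was −0.61 as deposited and turned positive, up to 0.25, after median-of-ratios rescaling and after quantile normalization. PRTN3 was thus the only member with more than about 5 reads in any empty vector library.

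Secondary granule genes reached the highest levels per length of the 3 classes. LTF (ENSG00000012223, chromosome 3, 46435645 to 46485234, minus strand), the iron-binding lactoferrin, had 21.4, 5.57 and 6.52 RPKM in replicates 1, 2 and 3 labelled hPRM1 and was at 0 in the other 6 libraries. LCN2 (ENSG00000148346, chromosome 9, 128149071 to 128153455, plus strand), a lipocalin that binds bacterial siderophores, had 53.4, 17.0 and 28.5 RPKM and was likewise at 0 elsewhere. CAMP (ENSG00000164047, chromosome 3, 48223347 to 48225491, plus strand), the precursor of the antimicrobial peptide LL-37, had 57.9, 21.6 and 24.7 RPKM and was at 0 elsewhere. All of these were highest in replicate 1 and lowest in replicate 2, and in each gene replicates 2 and 3 lay closer to each other than to replicate 1.

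The log2 differences to the empty vector were 3.37 (SE 0.56) for LTF, 4.94 (SE 0.46) for LCN2 and 5.02 (SE 0.43) for CAMP. Against the 3-read limit of the empty vector, the means were at least 80.2-fold higher for LTF, at least 54.5-fold higher for LCN2 and at least 45.4-fold higher for CAMP. Replicate 1 raised these limits, which were 43.5-fold, 37.6-fold and 30.3-fold without it, and 40.1-fold, 28.2-fold and 28.2-fold for the lowest library. LTF had a lower RPKM than CAMP but more reads in each library, 341, 64 and 93 against 168, 45 and 64, and LCN2 had 196, 45 and 93. Its longest annotated transcript has 2979 bases and that of CAMP 745. Reads of a 3′ kit do not grow with transcript length, so RPKM raises short genes against long ones.

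MMP8 (ENSG00000118113, chromosome 11, 102711795 to 102727050, minus strand), neutrophil collagenase, was far below the other secondary granule genes. It had 0.486, 0.169 and 0.205 RPKM, about 8, 2 and 3 reads, and was at 0 in the other 6 libraries. The highest value was again in replicate 1 and the lowest in replicate 2, but at these read numbers the exact 95% Poisson intervals of the 3 libraries overlapped (0.210 to 0.960, 0.0205 to 0.612 and 0.0422 to 0.598 RPKM). No fold is given against libraries at 0.

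MMP9 was the most even member. MMP9 (ENSG00000100985, chromosome 20, 46008908 to 46016561, plus strand), which codes for gelatinase B and gives tertiary granules their other name, had 22.3, 31.4 and 24.7 RPKM in replicates 1, 2 and 3 labelled hPRM1. The 3 libraries held about 273, 276 and 269 reads. Unlike the secondary granule genes it was lowest in replicate 1, and its highest library was only 1.41 times its lowest. Its mean of 26.1 ± 4.72 RPKM (SD, n = 3) was at least 144-fold higher than the limit in the empty vector, where it was at 0. The log2 difference was 4.75 (SE 0.14).

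MMP9 was also the only member found in hPRM2, with 5.60, 0 and 0.298 RPKM. Nearly all of this came from replicate 1, with about 31 reads (exact 95% Poisson interval 21.1 to 44.0), while replicate 3 had about 1. It did not pass the filter in hPRM2 against the empty vector. With no filter, the log2 difference was 1.03 (SE 0.73), with an adjusted p of 0.477 by limma over 20888 genes. The 3 hPRM2 libraries therefore did not share the signal.

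ARG1 (ENSG00000118520, chromosome 6, 131573144 to 131584332, plus strand), the arginine-degrading enzyme arginase 1, had 0.491, 0.185 and 0.551 RPKM in the libraries labelled hPRM1. These were about 4, 1 and 4 reads, and the other 6 libraries were at 0. Its order between libraries is within counting error, as the exact intervals overlapped. ARG1 is also made by hepatocytes, whose 6 marker genes summed to at most 0.504 RPKM in these libraries, with 5 of 6 at 0.

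No member passed the filter in hPRM2 against the empty vector, the comparison that played no part in the choice of genes. Its background was 1.36% of 13126 genes called higher and 1.37% called lower. With no filter, PRTN3 had a log2 difference of −1.20 (SE 0.59, limma adjusted p = 0.344), MPO of −0.09 (limma adjusted p = 0.652) and CTSG of −0.04 (limma adjusted p = 0.824). The other members except MMP9 were at 0 in all 6 libraries. Depth limits what could be seen in hPRM2. In its shallowest library, a value of 0 allows up to 3.04 RPKM of ELANE, 2.12 of CTSG, 3.77 of LCN2, 4.77 of CAMP and 0.866 of LTF. Levels such as those of LCN2 and CAMP in the libraries labelled hPRM1 lay above these limits. The ELANE and CTSG levels of replicate 2 labelled hPRM1 lay below them, so a value of 0 in that hPRM2 library does not exclude such levels.

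Summed by class, the libraries labelled hPRM1 held 28.3, 2.98 and 9.48 RPKM of primary granule genes in replicates 1, 2 and 3. Secondary granule genes summed to 133, 44.4 and 59.9 RPKM, and tertiary granule genes to 22.8, 31.6 and 25.2 RPKM. The means were 13.6 ± 13.1, 79.2 ± 47.4 and 26.5 ± 4.54 RPKM (SD, n = 3), or 6.23, 52.1 and 28.4 RPKM without replicate 1. In the empty vector the primary sum was 0.213, 2.86 and 2.23 RPKM, most of it PRTN3, and the secondary and tertiary sums were 0.

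**Figure D2:**
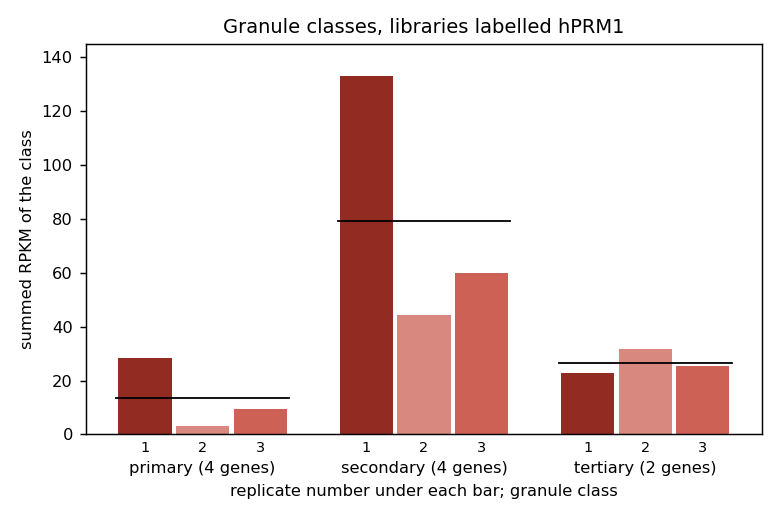
Summed RPKM of each granule class in the 3 libraries labelled hPRM1, with 1 bar per library, its replicate number under it and a line at the mean of the 3. Replicate 1 is the highest in primary (28.3) and secondary (133) granule genes and the lowest in tertiary granule genes (22.8).

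Within a library, the ratio of 2 classes does not depend on the scaling of that library. Secondary granule genes exceeded primary ones by 4.71-fold, 14.9-fold and 6.32-fold in replicates 1, 2 and 3, a mean log2 ratio of 2.93 ± 0.86 (SD, n = 3). The summed ratio of tertiary to primary granule genes was 0.806, 10.6 and 2.66, and that of tertiary to secondary ones 0.171, 0.713 and 0.421. These sums set 2 tertiary genes against 4 of each other class, and both orders depended on how the class was measured. By the median of a class, tertiary lay above primary in all 3 libraries (11.4 against 7.79, 15.8 against 0.880 and 12.6 against 1.66 RPKM). Secondary medians were 37.4, 11.3 and 15.6 RPKM, so that the tertiary median lay above the secondary one in replicate 2. With 2 tertiary genes, this median is the mean of MMP9 and ARG1 and not the level of a typical gene. ARG1 itself lay below the primary median in all 3 libraries. In estimated reads, the log2 ratio of summed tertiary to secondary genes was −1.37, 0.83 and 0.11 by library. Without ARG1 the mean log2 ratio of summed tertiary genes was 1.48 to primary and −1.45 to secondary granule genes, a move of less than 1 SD in both. ARG1 took so little of the tertiary sum that leaving it out could hardly move these ratios.

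The classes differed in how much they varied between the 3 libraries. The highest sum was 9.49 times the lowest for primary, 3.00 times for secondary and 1.39 times for tertiary granule genes. Among single primary granule genes above 0 in all 3 libraries, the spread was 5.40-fold for MPO, 8.98-fold for ELANE and 15.1-fold for CTSG. It was 2.68-fold to 3.84-fold for the 4 secondary granule genes. Of the tertiary granule genes, MMP9 had a spread of 1.41-fold and ARG1, at 1 to 4 reads, one of 2.98-fold. The tertiary sum was nearly all MMP9, so its small spread is that of a single gene. Over the 12933 genes above 0 in all 3 libraries, the median spread was 1.84-fold, and 23.1% reached a spread of 3-fold, as 5 of the 9 members did. These members were highest in replicate 1 in 7 of 9 cases, against 23.8% of the 12933 genes. The median ratio of replicate 1 to replicate 2 was 3.14 over the 9 members and 0.80 over all genes. With 3 libraries, these are descriptions of the libraries.

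Other genes of the same compartments came from lists that were also written with earlier results known. Of those above 0 in all 3 libraries labelled hPRM1, 3 of 4 in primary and 5 of 9 in secondary granules were highest in replicate 1. In primary granules, the defensin gene DEFA4 had 98.1, 5.82 and 20.9 RPKM in replicates 1, 2 and 3 labelled hPRM1, a spread of 16.8-fold. MS4A3, a surface protein of granulocyte precursors, had 1.25, 0.348 and 0.561 RPKM. RNASE3 had 26.1, 11.1 and 2.04 RPKM and RNASE2 22.6, 30.6 and 17.8 RPKM, and these ribonucleases are also eosinophil proteins. BPI, a primary granule protein that binds endotoxin, was at 0 in all 9 libraries. Of the transcription factors, CEBPE, which is needed for secondary granules, had 5.62, 0.364 and 3.81 RPKM, the same order of libraries as ELANE. DEFA4, MS4A3 and CEBPE were at 0 in the other 6 libraries.

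The 6 other tertiary granule genes differed by 1.08-fold to 1.31-fold between these libraries, and none was highest in replicate 1. FCN1, a ficolin, had 103, 106 and 98.0 RPKM, and MMP25, a membrane-bound metalloprotease, 53.6, 66.1 and 67.5 RPKM. None of the 6 genes of secretory vesicles and the late neutrophil surface was highest in replicate 1, but they differed by 1.05-fold to 4.32-fold, with a median of 1.73-fold. The chemokine receptor CXCR2, for example, had 177, 201 and 222 RPKM, and the phosphatase gene ALPL, a secretory vesicle marker, 6.56, 28.3 and 14.9 RPKM. In secondary granules the list was mixed, with TCN1, a vitamin B12 binder, at 18.1, 7.36 and 1.01 RPKM, but PGLYRP1, a peptidoglycan-binding protein, at 39.2, 37.4 and 44.8 RPKM and CHI3L1, a chitinase-like protein, at 30.9, 38.0 and 30.9 RPKM. LYZ (lysozyme), which monocytes also express, was highest in replicate 2, with 385, 622 and 321 RPKM.

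Markers of mature neutrophils and of other blood cells were read in the same libraries. The 8 mature neutrophil markers summed to 3199 to 3770 RPKM, with a median spread of 1.36-fold, and all 8 were above 0 in the 3 libraries labelled hPRM1. Of the erythroid markers, 7 of 8 were lowest in replicate 2, and of the platelet markers, 0 of 6 were highest in replicate 1. Eosinophil and basophil markers summed to 47.6, 20.4 and 36.5 RPKM in replicates 1, 2 and 3, the same order of libraries as the primary and secondary granule sums, with EPX, the eosinophil peroxidase gene, at 0. Nearly all of this sum was a single gene, CLC, with 46.1, 19.7 and 34.3 RPKM. IL5RA had another order, with 0.676, 0.406 and 1.45 RPKM. The median ratio of replicate 1 to replicate 2 was 1.77 for erythroid markers. It was 1.67 for eosinophil and basophil markers, over the 3 of 6 above 0 in all 3 libraries. Monocyte markers summed to 262 to 361 RPKM, T and NK cell markers to 494 to 564 RPKM and B cell markers to 54.2 to 65.2 RPKM. Replicate 1 was also the deepest and replicate 2 the shallowest of these libraries. The part of depth and of these other cell types in the spread of the granule genes was not tested.

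The wider set of 52 granule genes in 7 lists was then tested against the empty vector by limma on log2(RPKM + 1), where a gene was called if its adjusted p was 0.05 or less and it changed 2-fold or more. In the libraries labelled hPRM1, 41 of the 52 were tested, of which 31 rose, 5 fell and 5 did not pass, against 12.9% called higher and 62.5% called lower over all 13588 genes. The median log2 difference was 2.96 for the 41 and −1.72 for all genes. Of the 41, 24 were below 1 RPKM in every empty vector library and passed the filter through the libraries labelled hPRM1 alone, so that they had to differ, and all 24 rose. Of the 17 that at least 1 empty vector library held at 1 RPKM or more, 7 rose, 5 fell and 5 did not pass, with a median of 0.33. Those below 1 RPKM in some empty vector library also passed the filter only with the libraries labelled hPRM1. Of the 11 genes not tested, BPI and SERPINA3 were at 0 in all 9 libraries.

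By list, the 3 primary and 6 secondary granule genes tested all had to differ in this way, as did 4 of 6 tertiary granule genes and 4 of 6 genes of secretory vesicles and the late surface, so their calls are no evidence. LYZ, FPR1, a receptor for bacterial formyl peptides, and FCN1 were among them, with log2 differences of 8.73 (SE 0.28), 7.68 (SE 0.20) and 6.69 (SE 0.18). Of the 4 remaining genes 3 rose. Among them were SLC11A1, a metal transporter of tertiary granules and phagosomes, at 4.64 (SE 0.55) and ALPL at 2.96 (SE 0.53). SLC11A1 and ALPL each had only 1 empty vector library at 1 RPKM or more. All 3 passed the filter only with the libraries labelled hPRM1, so their calls are no evidence either. QPCT, a glutaminyl cyclase, was the tertiary granule gene that did not pass, at −0.37 (SE 0.28, limma adjusted p = 0.266).

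The machinery that packs and releases granules was split. Of the 6 genes that the empty vector also held, 2 rose, 2 fell and 2 did not pass. STXBP2, which takes part in granule fusion, rose by 1.18 (SE 0.29, limma adjusted p = 0.0083). SRGN, the proteoglycan core on which granule proteins are packed, and UNC13D, which primes granules for release, had to differ, with 7.17 (SE 0.27) and 4.62 (SE 0.26). CTSC, the protease that activates elastase, cathepsin G and proteinase 3, had a log2 difference of 0.26 (SE 0.18, limma adjusted p = 0.219), with 36.4 to 38.7 RPKM in the empty vector. Among 4 inhibitors of granule enzymes that the empty vector also held, 1 rose, 2 fell and 1 did not pass. PI3, an elastase inhibitor (6.92, SE 0.23), and SERPINA1, the main elastase inhibitor of plasma (5.42, SE 0.19), were among the 3 that had to differ. TIMP1, an inhibitor of MMP9, fell by 1.31 (SE 0.23, limma adjusted p = 0.00174). Among the transcription factors, SPI1, which codes for PU.1, had to differ (5.60, SE 0.23), CEBPB rose by 1.72 (SE 0.31, limma adjusted p = 0.00182), and CEBPA, needed early in granulocyte development, had a difference of 0.33 (SE 0.22, limma adjusted p = 0.212).

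The 5 genes that fell were HAX1, AP3B1, TIMP1, RECK and GFI1, listed after their values were seen. After median-of-ratios rescaling or quantile normalization, which moved the median of all genes from −1.72 to −0.12 and −0.39, only HAX1 was still called lower, TIMP1 and GFI1 changed sign under both and AP3B1 under the first, and QPCT, CTSC, LYST, TIMP2 and CEBPA were called higher. Over all genes, 8491 of 10241 calls were lower as deposited (82.9%), 3925 of 7844 after median-of-ratios rescaling and 4787 of 8226 (58.2%) after quantile normalization.

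In hPRM2 the same lists gave another result. Only 15 of the 52 genes were tested, none of them in the primary, secondary or secretory lists, and by limma 0 rose, 1 fell and 14 did not pass. At an unadjusted limma p under 0.05 there were 7 of the 15, of which 2 were higher and 5 lower, against 3351 of all 13126 genes in either direction. The median log2 difference was −0.98 for the 15 and −0.72 for all genes. LYST, the gene of a regulator of lysosome and granule size, had 19.4, 14.9 and 22.2 RPKM in the empty vector and 1.83, 0.653 and 1.99 RPKM in hPRM2. The groups did not overlap, as in 29.9% of all genes tested towards lower values, and LYST fell by 3.02 (SE 0.55, limma adjusted p = 0.0427). Its adjusted p ranged from 0.00276 to 0.201 over 15 alternative settings, and it was not called after either rescaling, at −2.60 and −2.44.

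SLC11A1 had 12.1, 171 and 133 RPKM in hPRM2 and 3.21, 0.0875 and 0.0257 RPKM in the empty vector. The groups did not overlap, as in 6.01% of all genes tested towards higher values, but the log2 difference of 5.32 (SE 1.12) did not pass the test (limma adjusted p = 0.0574). Without hPRM2 replicate 1, which had the lowest value, it was 6.50 with a limma adjusted p of 0.00692, and over 15 settings the adjusted p ranged up to 0.411. SLC11A1 passed the filter only with the hPRM2 libraries, so these values are a description and no evidence of a difference. In the libraries labelled hPRM1 it had 39.0, 43.9 and 39.2 RPKM, below hPRM2 replicates 2 and 3. The members of primary and secondary granules were at 0 in the same hPRM2 libraries.

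Set directly against hPRM2, which removes the shared empty vector, the libraries labelled hPRM1 were higher in 29 of 40 tested genes of the lists and lower in 1, HAX1, with 10 not passing. Of the 40, 21 were below 1 RPKM in every hPRM2 library and had to differ, and all 21 were higher. Of the other 19, 8 were higher, 1 was lower and 10 did not pass. Those below 1 RPKM in some hPRM2 library also passed the filter only with the libraries labelled hPRM1. Over all 11756 genes, 1879 (16.0%) were called higher and 4355 (37.0%) lower. Lower calls made up 69.9% of all calls as deposited, 37.0% after median-of-ratios rescaling and 45.3% after quantile normalization. The members' own log2 differences to hPRM2 were 4.94 for LCN2, 5.02 for CAMP and 3.37 for LTF, equal to those against the empty vector because both groups were at 0, and 3.72 for MMP9. PRTN3 was 0.59 here, so its sign depended on the group it was set against.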

How the data were processed

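The 9 RNA libraries of HEK293T cells were put by their titles into 3 groups of 3 (empty vector, hPRM1, hPRM2). The authors ran FastQC, Cutadapt, STAR and Salmon within nf-core/rnaseq (hg38 in the submitters' processing notes, tool versions not given in the sources used here), removed mitochondrial genes and deposited RPKM values, that is reads divided by the total of the library and by gene length, without counts. Symbols were found for 98.6% of the Ensembl identifiers, and 0 columns of values were left unused. Positions are from GENCODE 29.

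Reads were estimated from the smallest steps of genes with a single transcript of 600 to 20000 bases in GENCODE 29, with 249 subtracted from the length, and reads of a gene from its longest transcript. Of 41633 low values (up to 20 reads), 60.6% were whole within 0.05 reads, so count models were left out. Up to 3 reads were allowed for a gene at 0. Exact Poisson intervals (95%) used rounded reads.

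Comparisons used limma 3.58.1 (R 4.3.3, trend and robust) on log2(RPKM + 1), for genes with at least 1 RPKM in at least 3 of 6 libraries, with Benjamini-Hochberg adjustment over all genes tested. Fold changes on this scale understate those of low genes. In data simulated for the 3 comparisons, with the libraries labelled hPRM1 against empty vector, hPRM2 against empty vector and the former against hPRM2, 83.5%, 54.5% and 55.5% of 200 changed genes (a log2 change of 3) were called among 13588, 13126 and 11756 genes. The changed genes were drawn only from those with higher mean values over the 6 libraries, so these shares do not cover low genes. Python 3.11.15 (pandas 2.3.3, SciPy 1.17.1, numpy 2.4.6, matplotlib 3.10.9) was used for the rest and for plots.

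The members, the lists and the tests were chosen with earlier results of these data known. Members have no test in comparisons that use the libraries labelled hPRM1. Named genes are the members, in each list up to 4 genes with the highest mean RPKM in the libraries labelled hPRM1, genes called in hPRM2 and genes at 0 in all 9 libraries, and a gene outside this rule is named only where said. Alternatives were pseudocounts of 0.1 and 5, no filter, a minimum of 10 RPKM, quantile normalization, median-of-ratios rescaling, 1 fit over all 9 libraries, the replicate number as a block, a per-gene test on RPKM after the study's methods (run here with unequal variances, a form the methods do not state) and leaving out each library. For class ratios they were estimated reads, medians and leaving out ARG1.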

Additional observations from a re-analysis of the deposited data

How the results depend on the processing

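Over 300 alternative values of the members' log2 differences, 229 stayed within 1 SD of the value given and 71 moved further, and the sign changed only for PRTN3 in the libraries labelled hPRM1 under both rescalings. The 229 include values that could not move. In hPRM2 against the empty vector, the differences of ELANE, LTF, LCN2, CAMP, MMP8 and ARG1 were 0 under every setting. Of the libraries labelled hPRM1 against empty vector, 10241 genes were called, 5837 with a minimum of 10 RPKM, 4593 by the per-gene test and 9829 to 10332 with a library left out. Of the granule gene lists, 31 rose, 18 by the per-gene test and 30 to 31 with a library left out. In hPRM2 against empty vector, 359 genes were called, but 2125 in a fit of all 9 libraries, 167 with a minimum of 10 RPKM, 89 with no filter and 10 by the per-gene test. Leaving out a library gave from 12 (without empty vector replicate 3) to 2429 (without hPRM2 replicate 1), with 18 and 41 without empty vector replicates 1 and 2 and 27 and 84 without hPRM2 replicates 2 and 3. The share of lower calls fell from 50.1% to 27.2% after median-of-ratios rescaling and 26.6% after quantile normalization. No listed granule gene rose there, but 2 did in the fit of all 9 libraries (SLC11A1 and RAB27A), 1 after quantile normalization (SLC11A1) and 0 to 2 with a library left out, the 2 being the same genes without hPRM2 replicate 1. SLC11A1 passed the filter only with the hPRM2 libraries. Against hPRM2, the libraries labelled hPRM1 had 6234 calls, 3750 with a minimum of 10 RPKM, 219 by the per-gene test and 4837 to 7695 with a library left out. The log2 ratios of class sums, with a library left out, were 2.45 to 3.28 for secondary over primary, 0.55 to 2.41 for tertiary over primary and −1.90 to −0.87 for tertiary over secondary, and the last moved from −1.43 to −0.15 in estimated reads. A minimum of 10 RPKM leaves fewer genes to test, and the cause of the other shifts was not tested. Same-numbered libraries did not deviate together (correlations from −0.078 to 0.080 over 9 pairs, 0 above 0.1). This does not settle whether they shared a culture or a day, which the labels do not say. A replicate block gave 10334, 57 and 5816 calls in the 3 comparisons, and 31 and 0 listed genes rose. Depth limits hPRM2 most, since 1 read there is worth the most RPKM.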

Other observations

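Besides SLC11A1, RAB27A (a small GTPase of granule release, named after its values were seen) was also high in the hPRM2 libraries, with 13.8, 77.0 and 62.0 RPKM against 5.12, 3.61 and 6.32 RPKM in the empty vector. Its log2 difference of 2.82 (SE 0.72) did not pass the test (limma adjusted p = 0.0834), with a range of 0.00653 to 0.383 over 15 settings. ITGAM, the CD11b chain, named in the same way, had 17.5 RPKM in hPRM2 replicate 3 but 0.350 and 0 RPKM in replicates 2 and 1, so a single library carried it. In hPRM2 replicates 2 and 3, SLC11A1 and RAB27A were above their levels in the libraries labelled hPRM1, which lay between 39.0 and 43.9 RPKM and between 12.4 and 19.8 RPKM. At the same time 5 of the 8 mature neutrophil markers, among them the receptors CXCR1 and CXCR2, were at 0 in all 3 hPRM2 libraries. The other 3 were above 0 in some of these libraries, and the 8 summed to at most 3.02 RPKM. FCN1 had 0, 2.29 and 2.87 RPKM in hPRM2 replicates 1, 2 and 3.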
